A study of Mus musculus with 18 samples.

Results

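The matrix metalloproteinases (MMPs) and tissue inhibitors of metalloproteinases (TIMPs) described here are 8 genes, Mmp2, Mmp9, Mmp14, Mmp15, Timp1, Timp2, Timp3 and Timp4. They were listed by name for their role in matrix turnover, with earlier results of these data known, from 57010 gene rows. All 8 were found, and all 8 were among the 17531 genes with enough reads to be tested. RNA was sequenced from endothelial cells isolated from mouse brain at postnatal day 57, in 18 libraries of 4 groups. The hypoxia KO group (n = 5) and the normoxia KO group (n = 5) carried Slco1c1-iCreERT2;Pdcd10fl/fl;Aldh1l1-EGFP/Rpl10a, in which the Slco1c1 driver directs a tamoxifen-activated Cre to brain endothelium. The hypoxia flox group (n = 4) and the normoxia flox group (n = 4) were Pdcd10fl/fl;Aldh1l1-EGFP/Rpl10a littermates without the driver. Hypoxia was 12% oxygen for 7 days and normoxia was 21% oxygen. The design gives 50 µg of 4-hydroxytamoxifen by stomach injection at postnatal day 1 for both genotypes, and it also mentions uninjected Cre animals as controls without saying which libraries, if any, they gave. Every group thus shared the floxed Pdcd10 alleles and the astrocyte reporter.

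The product of Pdcd10 is the scaffold protein CCM3, and mice that lose it in endothelium develop cerebral cavernous malformations, which are clusters of dilated, leaky brain vessels. MMPs are zinc proteases that cut basement membrane and other matrix proteins, and most are made as inactive precursors. TIMPs are small secreted proteins that block the active site of MMPs; TIMP2 also holds the precursor of MMP2 in a complex with membrane-bound MMP14 (MT1-MMP), where a free MMP14 molecule activates it. In brain vessels these enzymes are known for opening the blood-brain barrier and for matrix remodelling during vessel growth.

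Pdcd10 was lower in KO libraries, at 18.2 to 25.3 CPM (read counts scaled to library depth) in hypoxia KO against 37.7 to 60.9 CPM in hypoxia flox, and at 16.3 to 20.1 CPM in normoxia KO against 30.6 to 45 CPM in normoxia flox. Its log2 difference was -1.17 ± 0.14 in hypoxia (SE, adjusted p = 2.87e-05) and -1.08 ± 0.14 in normoxia (adjusted p = 5.02e-05). Total counts per library were 17931197 to 31193333. The 10 endothelial markers summed to 14900 to 22600 CPM in every library. Normoxia KO 4 and normoxia flox 4 carried neural RNA, with 8 neuron markers summing to 1080 and 1900 CPM, against 24 to 106 CPM in each of the other 16 libraries, and 8 astrocyte markers to 1200 and 2140 CPM, against 91 to 272 CPM. Oligodendrocyte markers were in every library, summing to 628 to 5160 CPM. Microglia and macrophage markers summed to 132 and 206 CPM in normoxia KO 4 and flox 4, against 23 to 79.8 CPM elsewhere. Hypoxia KO 4 carried neutrophil markers, whose sum of 115 CPM compared with 1.13 to 7.6 CPM elsewhere. Lymphocyte markers summed to 15.9 to 42.6 CPM in hypoxia KO and 2.6 to 11.9 CPM in hypoxia flox. In normoxia they summed to 8.16 to 22.3 CPM in KO and 3.5 to 14.7 CPM in flox. Of 9 tested, 8 passed as higher in KO in hypoxia and 4 in normoxia. Pericyte markers summed to 1190 to 2140 CPM in hypoxia KO and 179 to 971 CPM in hypoxia flox, and to 699 to 1320 CPM in normoxia KO and 335 to 1180 CPM in normoxia flox; 6 of 9 passed as higher in KO in hypoxia and 3 of 9 in normoxia. Smooth muscle markers summed to 255 to 419 CPM in hypoxia KO and 520 to 822 CPM in hypoxia flox, and to 291 to 329 CPM in normoxia KO and 637 to 1130 CPM in normoxia flox, with 6 of 8 lower in KO in each. The 12 immediate early genes respond to cell isolation. In hypoxia they summed to a median of 26100 CPM in KO (3220 to 29300) and 4820 CPM in flox (1900 to 19600). In normoxia the medians were 29000 CPM in KO (3410 to 30800) and 6440 CPM in flox (2000 to 25400). All 12 had a positive KO difference in each oxygen condition, of which 1 passed in hypoxia and 0 in normoxia. Sex is not in the labels. Y-linked transcripts with almost no Xist marked all 4 hypoxia flox libraries, hypoxia KO 4, normoxia KO 1 and 2 and normoxia flox 1; Xist with almost no Y-linked transcripts marked hypoxia KO 1, 2, 3 and 5, normoxia KO 5 and 6 and normoxia flox 2; normoxia KO 4 and normoxia flox 3 and 4 held both. Apart from hypoxia KO 4, genotype and sex signal cannot be told apart in hypoxia. In flox, oxygen and sex signal were also largely aligned, since only normoxia flox 1 shared the sex signal of the 4 hypoxia flox libraries. The labels do not say whether the libraries came from separate animals, so the p-values measure the spread between these libraries. In such bulk RNA, a change in the number of cells of a type and a change in RNA per cell cannot be told apart.

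Sequences upstream of the members that differed between groups are shown to place these genes side by side. RefSeq promoters (GRCm38.p6, 250 bases before to 50 after the start of the gene) were at hand for 6 of the 8 members, and Mmp2 and Mmp9 had no entry. Capitals mark TGAGTAA, a variant of the AP-1 motif, and ACGTG, the core of the hypoxia response element, each read on either strand (CACGT is ACGTG on the other strand). Each line is 5′ to 3′ on the strand of the gene: Mmp14 at chr14:54431348-54431647 (plus strand), Timp1 at chrX:20869916-20870215 (plus), Timp2 at chr11:118355362-118355661 (minus) and Timp3 at chr10:86300162-86300461 (plus).
Mmp14: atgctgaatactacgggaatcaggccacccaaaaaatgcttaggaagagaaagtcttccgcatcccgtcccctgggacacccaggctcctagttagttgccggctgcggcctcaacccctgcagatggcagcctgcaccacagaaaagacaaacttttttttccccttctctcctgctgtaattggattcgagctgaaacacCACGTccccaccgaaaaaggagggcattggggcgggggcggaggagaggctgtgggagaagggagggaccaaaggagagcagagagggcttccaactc
Timp1: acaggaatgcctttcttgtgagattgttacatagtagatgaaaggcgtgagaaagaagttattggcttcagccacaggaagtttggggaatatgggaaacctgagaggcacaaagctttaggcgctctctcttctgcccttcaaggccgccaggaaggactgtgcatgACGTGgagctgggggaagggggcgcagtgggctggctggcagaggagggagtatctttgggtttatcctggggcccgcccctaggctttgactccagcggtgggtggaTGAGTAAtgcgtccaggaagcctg
Timp2: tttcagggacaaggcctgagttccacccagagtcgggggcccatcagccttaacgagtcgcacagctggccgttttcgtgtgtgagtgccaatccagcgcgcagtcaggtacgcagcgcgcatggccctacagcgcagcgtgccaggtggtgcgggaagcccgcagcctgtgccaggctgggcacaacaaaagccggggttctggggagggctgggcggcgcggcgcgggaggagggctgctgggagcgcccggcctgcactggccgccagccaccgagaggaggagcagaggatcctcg
Timp3: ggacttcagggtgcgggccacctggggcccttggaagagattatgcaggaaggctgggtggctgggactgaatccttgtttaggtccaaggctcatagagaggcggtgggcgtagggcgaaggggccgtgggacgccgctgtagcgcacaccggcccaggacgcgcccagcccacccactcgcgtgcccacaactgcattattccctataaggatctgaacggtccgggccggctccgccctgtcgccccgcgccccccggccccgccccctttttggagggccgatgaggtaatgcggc
ACGTG was found 48 bases before the start in Mmp14 and 82 bases before it in Timp1, and 19.6% of 32851 mouse promoters of the same length hold it. TGAGTAA was found in Timp1, 26 bases after the start, and is in 2.68% of promoters. The full AP-1 motif TGANTCA, in 7.81% of promoters, had no match in the 6 members. CACCC, a core of the KLF motif that does not overlap the others, was in all 6, and is in 57.5% of promoters. The 4 windows printed were between 55% (Timp1) and 68.7% (Timp2) G and C. A match is a description of the letters and shows no binding.

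Level per gene length was compared in the deposited RPKM (reads per kilobase of transcript, scaled to library depth). Timp3, a TIMP that stays bound to the matrix, was highest at a median of 106 RPKM over the 18 libraries (range 46.6 to 185.8), above Timp2 in 18 of 18. Timp2 (median 33.8 RPKM, range 12.6 to 89.3) exceeded Mmp15 (median 26.7 RPKM, range 15.3 to 35.8) in 12 of 18 libraries, so these neighbours overlapped. Mmp15 was above Mmp14 in 18 of 18 libraries. Mmp14 had a median of 3.45 RPKM and Timp1 of 1.5 RPKM. Mmp2, Timp4 and Mmp9 were near the limit of the deposited decimals, with medians of 0.3, 0.3 and 0.1 RPKM. Mmp2 was above Timp4 in 6 libraries and equal to it in 2. Timp2, Timp3 and Mmp15 were thus the 3 most abundant members.

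**Figure D1:**
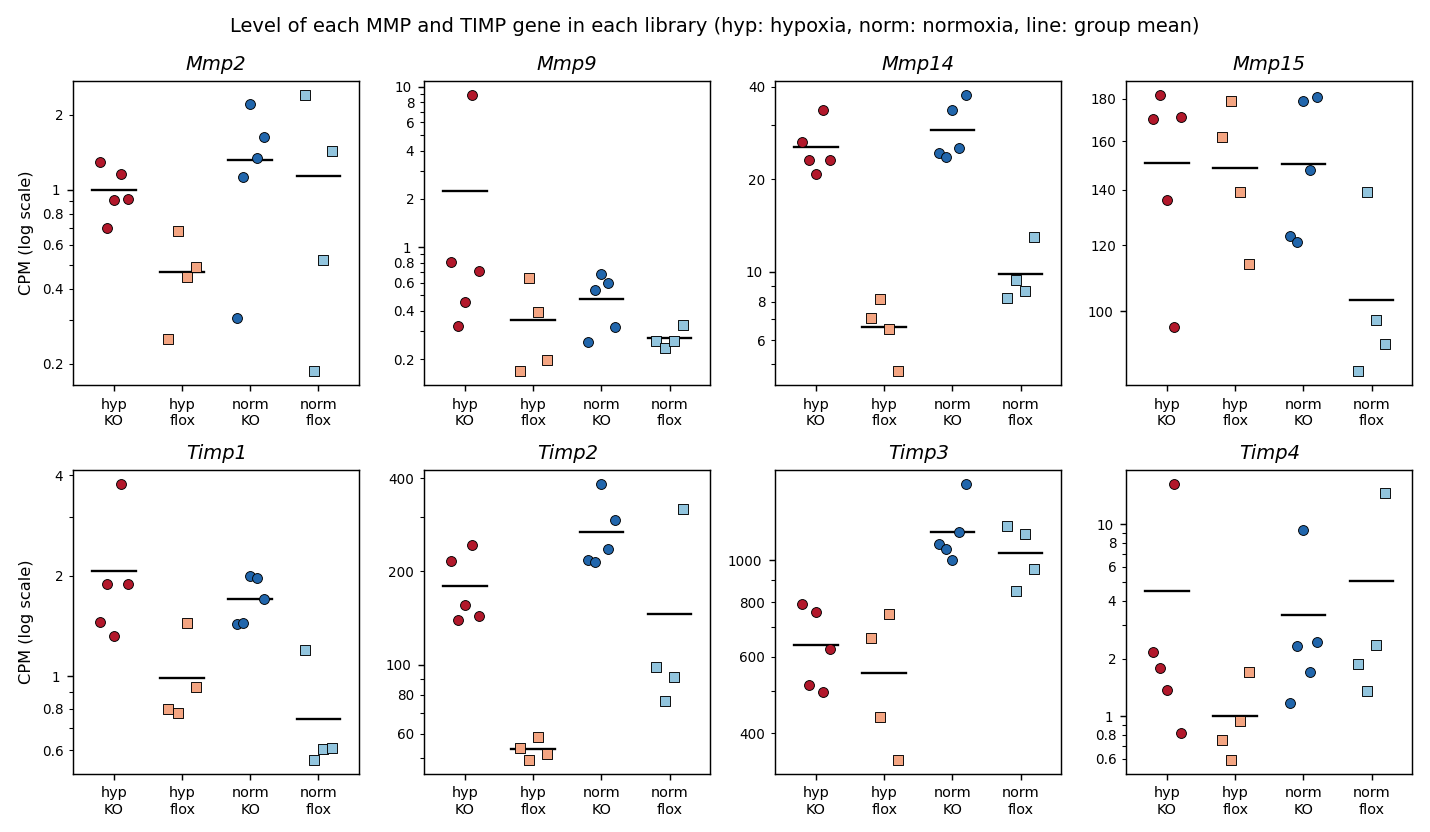
Level in CPM (log axis) of the 8 genes in each of the 18 libraries; each point is a library, circles are KO and squares flox, and lines are group means. Mmp14 in both oxygen conditions and Timp2 in hypoxia show KO points above all flox points; 8.92 CPM of Mmp9 and 16.3 CPM of Timp4 in hypoxia KO 4 stand apart.

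Mmp14 was higher in KO in both oxygen conditions. Mmp14, the membrane-type MMP that cuts pericellular collagen and activates pro-MMP2, stood at 26.4, 23.2, 20.8, 33.6 and 23.2 CPM in hypoxia KO libraries 1 to 5. Hypoxia flox libraries 2 to 5 had 7.08, 8.16, 6.54 and 4.75 CPM. The lowest hypoxia KO library was thus above the highest hypoxia flox library, and the fitted difference was 1.94 ± 0.20 on the log2 scale (SE; 95% interval 1.51 to 2.37), or 3.83-fold (adjusted p = 8.8e-06 by edgeR's quasi-likelihood test with Benjamini-Hochberg adjustment over all genes, which gives every adjusted p here, with 0.05 as the threshold for a pass). In normoxia, KO libraries 1, 2, 4, 5 and 6 had 24.3, 23.6, 33.6, 25.4 and 37.7 CPM of Mmp14, and flox libraries 1 to 4 had 8.25, 9.42, 8.64 and 13.0 CPM. Again no libraries overlapped, and the difference was 1.56 ± 0.20 (95% interval 1.14 to 1.98), or 2.94-fold (adjusted p = 4.19e-05). The highest normoxia flox value was in library 4, one of the neural RNA pair; without that pair the normoxia difference was 1.62 ± 0.21. With the sex signal in the model the hypoxia difference was 1.92 ± 0.24 (adjusted p = 9.29e-05). Within hypoxia, that fit can part genotype from sex signal only through KO 4. That library carried neutrophil markers and had the highest hypoxia Mmp14, so the sex-adjusted value is a weak check. Mmp14 passed the test in 22 of 22 alternative analyses of each genotype comparison. The part of the pericyte markers, which were also higher in KO, was not tested.

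Mmp15 (MT2-MMP), the other membrane-type member, was an abundant MMP with no genotype call. It ranged from 95.6 to 182 CPM in hypoxia KO and from 114 to 179 CPM in hypoxia flox (0.02 ± 0.20, adjusted p = 0.964, 95% interval -0.40 to 0.44). Normoxia KO had 121 to 181 CPM and normoxia flox 84.7 to 139 CPM (0.55 ± 0.20, adjusted p = 0.0764, 95% interval 0.12 to 0.97). Among normoxia libraries with Y-linked transcripts alone, Mmp15 was 123 and 121 CPM in KO 1 and KO 2 and 84.7 CPM in flox 1. Among normoxia libraries with Xist alone it was 148 and 181 CPM in KO 5 and KO 6 and 139 CPM in flox 2. In hypoxia, the single KO library with Y-linked transcripts alone (KO 4) had 95.6 CPM, below all 4 flox libraries. With the sex signal in the model, the genotype difference was 0.55 ± 0.13 (adjusted p = 0.0076) in normoxia and -0.49 ± 0.16 (adjusted p = 0.044) in hypoxia, so the direction for hypoxia turned. Within hypoxia, that fit can part genotype from sex signal only through KO 4, the library with neutrophil markers.

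The gelatinases Mmp2 and Mmp9, secreted enzymes that cut type IV collagen and denatured collagen, were low in every group. Mmp2 stood at 0.700 to 1.29 CPM in hypoxia KO and 0.251 to 0.684 CPM in hypoxia flox. These ranges did not overlap, yet the difference of 1.09 ± 0.62 did not pass the test (adjusted p = 0.228); with only the 2 hypoxia groups in the fit it passed at 1.08 ± 0.32 (adjusted p = 0.0337). It had 0.306 to 2.21 CPM in normoxia KO and 0.187 to 2.40 CPM in normoxia flox (0.26 ± 0.51, adjusted p = 0.776). The highest Mmp2 value was in normoxia flox 1, which had 509 CPM of Col1a1 and 424 CPM of Col1a2, the type I collagen genes. The sum of all 10 perivascular fibroblast markers, 959 CPM, was highest in that library, mostly through these 2 genes. The other 8 markers summed to 25.6 CPM there, within the 14.2 to 125 CPM of the other 17 libraries, so they did not set this library apart. Those 8 markers, Col3a1 among them, summed to 49.9 to 91.6 CPM in hypoxia KO and 15.8 to 19.5 CPM in hypoxia flox, and their part in the Mmp2 values was not tested.

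Mmp9, which neutrophils also make and store, passed in hypoxia with a single high library. Hypoxia KO libraries 1 to 5 had 0.808, 0.323, 0.455, 8.92 and 0.714 CPM. Hypoxia flox libraries 2 to 5 had 0.168, 0.639, 0.396 and 0.196 CPM. Apart from hypoxia KO 4 the ranges overlapped, and the fitted difference of 2.68 ± 0.92 (adjusted p = 0.0459) was 0.71 ± 0.42 without that library (adjusted p = 0.291). Leaving out any 1 of the 4 hypoxia flox libraries also ended the call, at 2.43 to 3.15 (adjusted p of 0.0595 to 0.118). With the immediate early genes as a covariate the Mmp9 difference did not pass either (2.3 ± 1.19, adjusted p = 0.186). A replicate block over all libraries also ended the call (2.24 ± 0.77, adjusted p = 0.0603). In hypoxia KO 4 the neutrophil genes S100a8, S100a9 and Csf3r stood at 29.2, 49.4 and 21.4 CPM. Mmp8, the neutrophil collagenase, had 84 counts there and at most 6 in any other library, and all 8 neutrophil markers were detected, although Ly6g had 2 counts. Ly6g was at 0 in 16 of the other 17 libraries. In normoxia Mmp9 was between 0.255 and 0.679 CPM in KO and between 0.234 and 0.326 CPM in flox (0.80 ± 1.12, adjusted p = 0.688).

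**Figure D2:**
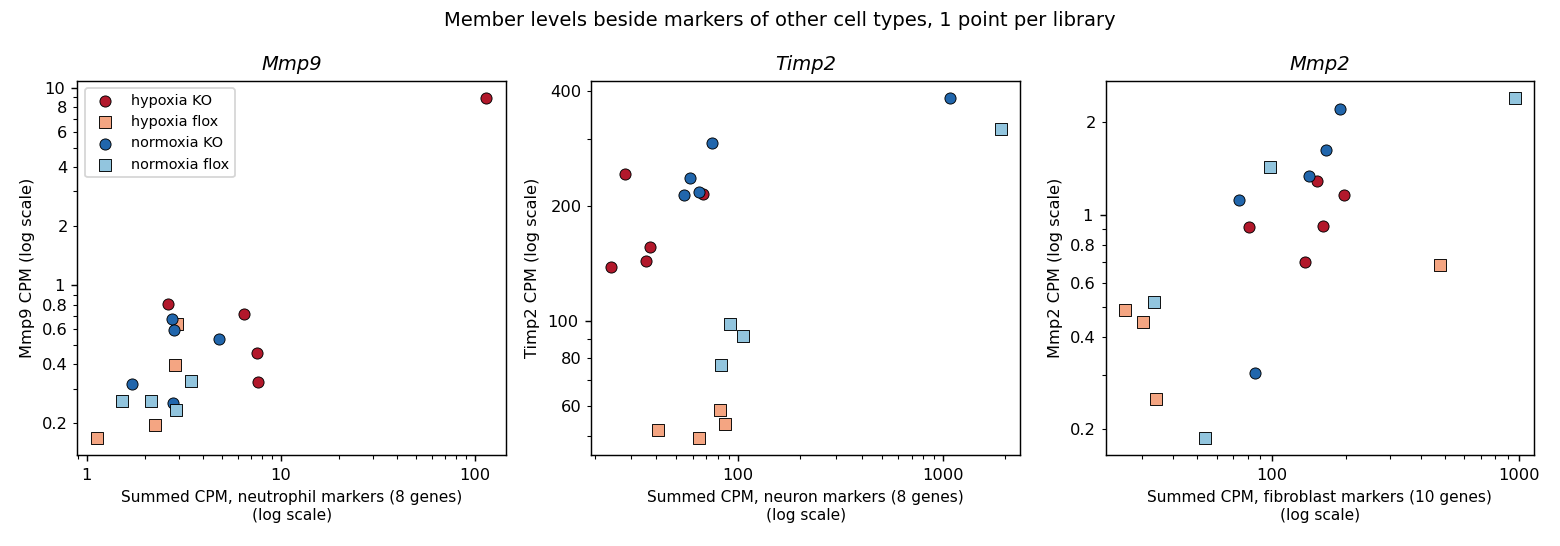
Level of Mmp9, Timp2 and Mmp2 (CPM, log axis) against the summed CPM of neutrophil, neuron and perivascular fibroblast markers (log axis); each point is 1 of 18 libraries. Hypoxia KO 4 stands alone in the Mmp9 panel at a marker sum of 115 CPM, and the 2 normoxia libraries with neuron marker sums of 1080 and 1900 CPM hold the highest Timp2 values of their groups. In the Mmp2 panel, the sums of 959 CPM in normoxia flox 1 and 479 CPM in hypoxia flox 3 are mostly Col1a1 and Col1a2.

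Of the inhibitors, Timp2 was higher in KO after hypoxia. Timp2, which blocks MMPs broadly and takes part in pro-MMP2 activation, had 216, 139, 156, 243 and 144 CPM in hypoxia KO libraries 1 to 5. Hypoxia flox libraries 2 to 5 had 53.9, 49.4, 58.5 and 51.8 CPM. Every hypoxia KO library was above every hypoxia flox library, with a difference of 1.75 ± 0.36 (95% interval 0.98 to 2.52), or 3.36-fold (adjusted p = 0.00301). It passed in 22 of 22 alternatives, with 1.85 ± 0.43 (adjusted p = 0.00904) when the sex signal was in the model. Within hypoxia, that fit can part genotype from sex signal only through KO 4. That library carried neutrophil markers and had the highest hypoxia Timp2, so the sex-adjusted value is a weak check. Normoxia KO libraries 1, 2, 4, 5 and 6 had 218, 214, 384, 237 and 292 CPM, and normoxia flox libraries 1 to 4 had 98.6, 76.7, 91.3 and 318 CPM. Here the ranges overlapped through flox 4 alone, and the difference of 0.88 ± 0.35 did not pass (adjusted p = 0.103). Without the neural RNA pair, normoxia KO 4 and normoxia flox 4, it was 1.40 ± 0.19 (adjusted p = 8.01e-05), and without flox 4 alone it was 1.57 ± 0.21 (adjusted p = 8.59e-05).

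Timp1, the inducible secreted inhibitor, was higher in KO in both oxygen conditions, from few reads (12 to 78 per library). Hypoxia KO libraries 1 to 5 had 1.45, 1.89, 1.32, 3.78 and 1.89 CPM, and hypoxia flox libraries 2 to 5 had 0.796, 0.775, 1.44 and 0.931 CPM. Hypoxia flox 4 lay within the KO range, and the difference was 1.08 ± 0.32, or 2.11-fold (adjusted p = 0.0254). Leaving out hypoxia KO 4, the library with the highest Timp1 and the neutrophil markers, gave 0.74 ± 0.27 (adjusted p = 0.073), and leaving out hypoxia flox 2, 3 or 5 in turn also ended the call, at 0.97 to 1.05 (adjusted p of 0.0621 to 0.071). With the immediate early genes as a covariate the hypoxia difference of Timp1 did not pass (1.03 ± 0.38, adjusted p = 0.0618). In normoxia KO libraries 1, 2, 4, 5 and 6, Timp1 was 1.43, 1.44, 2, 1.97 and 1.71 CPM. Normoxia flox libraries 1 to 4 had 1.20, 0.562, 0.608 and 0.612 CPM, with no overlap between the groups. The normoxia difference was 1.22 ± 0.34, or 2.33-fold (adjusted p = 0.0199). It was 1.03 ± 0.38 (adjusted p = 0.208) when the same-numbered libraries were paired by a replicate block, and the call also ended without normoxia flox 2 or 3 (1.09 and 1.11, adjusted p = 0.0712 and 0.0693). Flox 1, the highest flox value, was the library with high Col1a1 and Col1a2.

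Timp3 and Timp4 had no genotype call. Timp3, which also blocks ADAM and ADAMTS proteases, differed by 0.22 ± 0.21 in hypoxia (adjusted p = 0.515) and by 0.16 ± 0.21 in normoxia (adjusted p = 0.665), with 95% intervals of -0.23 to 0.66 and -0.29 to 0.61. Timp4, an inhibitor with a more restricted tissue range, was 0.816 to 16.3 CPM in hypoxia KO and 0.593 to 1.71 CPM in hypoxia flox (2.18 ± 1.04, adjusted p = 0.153). It was 1.17 to 9.30 CPM in normoxia KO and 1.36 to 14.6 CPM in normoxia flox (-0.59 ± 0.88, adjusted p = 0.706). Its 3 highest libraries were hypoxia KO 4 and the neural RNA pair.

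Of the inhibitor genes, 3 lie inside synapsin genes on the opposite strand in the GRCm38 annotation, Timp1 in Syn1, Timp4 in Syn2 and Timp3 in Syn3. The library kit was stranded, but how strand was handled in counting is not given in the sources used here. Exons shared 0 bases for Timp1 and Syn1, 90 of the 5894 exon bases of Timp4, and 1733 of the 8144 exon bases of Timp3. Syn1 and Syn2, which encode synaptic vesicle proteins, stood at 58.2 and 47.7 CPM in normoxia KO 4 and at 95.7 and 67.8 CPM in normoxia flox 4. Syn3 was at most 8.17 CPM in any library, against at least 347 CPM of Timp3. The 3 synapsin genes had adjusted p values of 0.22 or more in every comparison of the reported fit. Without the neural RNA pair and hypoxia KO 4, 1 of the 3 passed as higher in KO in hypoxia and 1 in normoxia. With the immediate early genes as a covariate, 1 passed as lower in KO in hypoxia and 1 in normoxia.

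Counted over the 8 members, 4 rose in KO after hypoxia (Mmp9, Mmp14, Timp1 and Timp2) and none fell, with a median of 1.42 on the log2 scale. Among all tested genes 22.3% passed in that comparison (11.4% higher and 11% lower), and the median was 0. In normoxia 2 rose (Mmp14 and Timp1) and none fell, with a median of 0.68, where 16.6% of all genes passed (9.54% higher and 7.03% lower) and their median was -0.02. With the replicate block over same-numbered normoxia libraries, 1 member passed (Mmp14) and 701 genes in all, against 2905 without it; with a block over all libraries Timp1 did not pass (1.09 ± 0.34, adjusted p = 0.0655) and Timp2 did (0.98 ± 0.27, adjusted p = 0.041). Without the neural RNA pair and hypoxia KO 4, a setting chosen after seeing the data, 2 members passed in hypoxia (Mmp14 and Timp2) and 3 in normoxia (Mmp14, Timp1 and Timp2). The groups did not overlap for 3 members in hypoxia and 2 in normoxia, where 22.3% and 14.7% of all genes had no overlap.

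**Figure D3:**
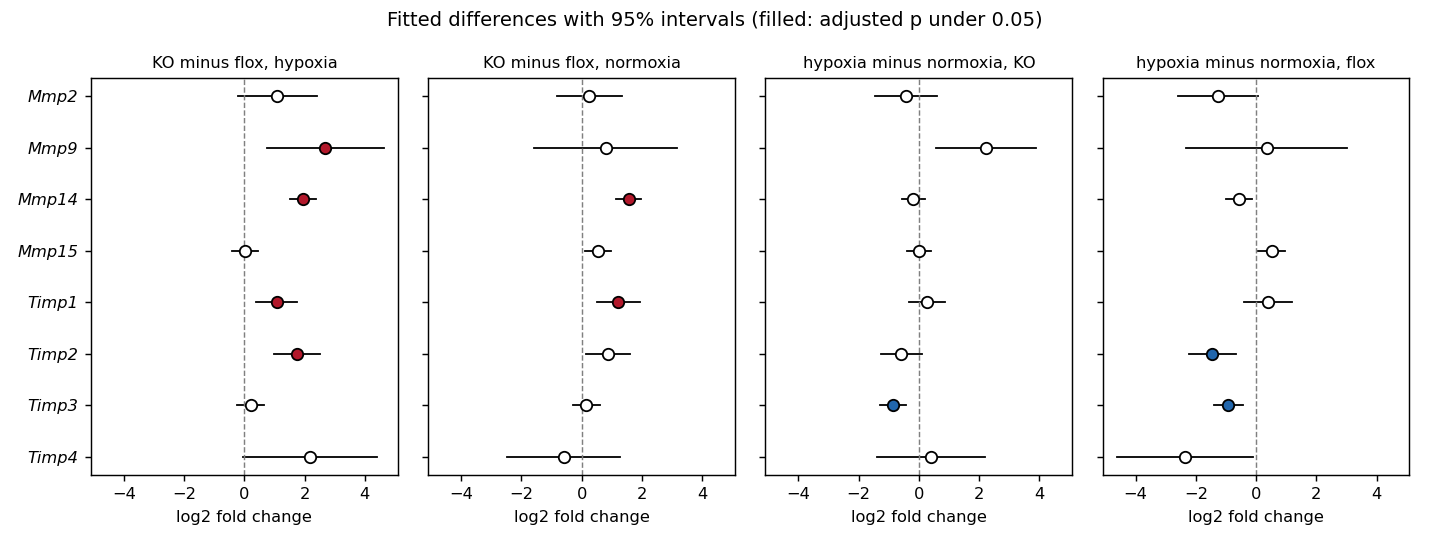
Fitted log2 fold changes of the 8 genes with 95% intervals in 4 comparisons; filled points pass the adjusted test, red where higher and blue where lower in the first-named condition. Mmp14 is filled at 1.94 and 1.56 in the genotype panels, and Timp3 at -0.86 and -0.92 in the oxygen panels.

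Oxygen was next compared within each genotype, which asks how 7 days of 12% oxygen differed from room air. Timp3 fell in both genotypes. Hypoxia KO libraries 1 to 5 had 792, 515, 758, 498 and 626 CPM of Timp3, and normoxia KO libraries 1, 2, 4, 5 and 6 had 1090, 1060, 1000, 1160 and 1500 CPM. Hypoxia flox libraries 2 to 5 had 663, 435, 753 and 347 CPM, and normoxia flox libraries 1 to 4 had 1200, 851, 1150 and 955 CPM. Every hypoxia library was below every normoxia library of its genotype. The difference was -0.86 ± 0.20 in KO (95% interval -1.29 to -0.44, 0.549-fold, adjusted p = 0.0414) and -0.92 ± 0.22 in flox (95% interval -1.39 to -0.44, 0.529-fold, adjusted p = 0.0336). Its adjusted p sat near the threshold. Leaving out any of 8 KO libraries (normoxia KO 1, 2, 4, 5 or 6, hypoxia KO 2, 4 or 5) ended the KO call (-0.91 to -0.74, adjusted p of 0.0579 to 0.136), and leaving out normoxia flox 1 or 3 or hypoxia flox 3 or 5 ended the flox call (-0.88 to -0.76, adjusted p of 0.084 to 0.124). With the sex signal in the model, Timp3 passed in KO (-0.91 ± 0.21, adjusted p = 0.0352) and not in flox (-0.84 ± 0.24, adjusted p = 0.107). With a replicate block, over all libraries or over same-numbered ones, Timp3 passed in neither genotype.

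Timp2 was lower after hypoxia in flox, by a difference of -1.45 ± 0.37 (0.365-fold, adjusted p = 0.0468). Much of that size came with normoxia flox 4, the library with neuron markers. Without the neural RNA pair the difference was -0.74 ± 0.18 (adjusted p = 0.028), and without normoxia flox 4 alone it was -0.74 ± 0.21 (adjusted p = 0.0776). In KO, Timp2 differed by -0.58 ± 0.33 between hypoxia and normoxia (adjusted p = 0.438). The call in flox also ended without any of hypoxia flox 2, 3, 4 or 5 (-1.5 to -1.42, adjusted p of 0.0946 to 0.125), and with the sex signal in the model (-1.52 ± 0.42, adjusted p = 0.0882). With a replicate block over same-numbered libraries it was -1.27 ± 0.51 (adjusted p = 0.682).

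The other members had no oxygen call. Mmp14 in hypoxia flox (4.75 to 8.16 CPM) lay below normoxia flox (8.25 to 13.0 CPM) without overlap, but the difference of -0.57 ± 0.21 did not pass (adjusted p = 0.2). In KO it differed by -0.19 ± 0.18 (adjusted p = 0.671). Mmp15 differed by 0.00 ± 0.19 in KO (adjusted p = 0.999) and by 0.53 ± 0.21 in flox (adjusted p = 0.22). With the sex signal in the model the flox difference of Mmp15 was 0.86 ± 0.15 (adjusted p = 0.00331). Timp1 differed by 0.27 ± 0.28 in KO (adjusted p = 0.704) and by 0.41 ± 0.38 in flox (adjusted p = 0.664). For Mmp9 in KO, 2.23 ± 0.79 (adjusted p = 0.207) was 0.26 ± 0.37 without hypoxia KO 4 (adjusted p = 0.821).

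In all, 1 of 8 members passed between hypoxia KO and normoxia KO and 2 of 8 between hypoxia flox and normoxia flox, each lower in hypoxia, where 1.48% and 2.81% of all genes passed. Member medians were -0.10 and -0.74, and the medians of all genes were -0.03 in both. These comparisons share libraries with the genotype comparisons. Of all genes, 0.713% were higher and 0.77% lower in hypoxia in KO, and 2.34% were higher and 0.462% lower in flox. The groups did not overlap for 1 member in KO (Timp3) and 3 in flox (Mmp14, Timp2 and Timp3), against 3.83% and 8.5% of all genes. Without the neural RNA pair and hypoxia KO 4, 0 members passed in KO (Timp3 at -0.82 ± 0.23, adjusted p = 0.0988 by edgeR's quasi-likelihood test) and 2 in flox.

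Whether the genotype difference itself depended on oxygen was tested by the interaction, (hypoxia KO minus hypoxia flox) minus (normoxia KO minus normoxia flox). By edgeR's quasi-likelihood test 0 of 8 members passed, 0 reached an unadjusted p under 0.05, and DESeq2 and limma also called 0. Among all genes 0.439% passed. The estimate was 0.38 ± 0.27 for Mmp14 (95% interval -0.20 to 0.96), 0.87 ± 0.49 for Timp2 (-0.17 to 1.91), 1.89 ± 1.54 for Mmp9 (-1.38 to 5.15) and -0.14 ± 0.47 for Timp1 (-1.13 to 0.84). The passes of Timp2 and Mmp9 in hypoxia and not in normoxia were therefore not shown to differ between oxygen conditions. For Mmp15 it was -0.53 ± 0.28 (adjusted p = 0.965), and -1.04 ± 0.20 (adjusted p = 0.0428) with the sex signal in the model. Within hypoxia, that fit too can part genotype from sex signal only through hypoxia KO 4.

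The make-up of the family was described in the deposited RPKM. Mmp14 made up 12.2%, 10.2%, 12.1%, 21.4% and 10.9% of the summed RPKM of the 4 MMPs in hypoxia KO libraries 1 to 5, against 3.73%, 3.98%, 4.15% and 3.7% in hypoxia flox libraries 2 to 5. Its share was 13.3% to 15.6% in normoxia KO and 5.82% to 11.1% in normoxia flox. Mmp15 made up the most of the MMP sum in every library (67.6% to 96%). Timp3 made up 48.7% to 70.8% of the TIMP sum in hypoxia KO and 75.9% to 85.6% in hypoxia flox, and 56.6% to 72.1% in normoxia KO and 60% to 86.2% in normoxia flox. The 60% was in normoxia flox 4, the library with neural RNA, and the other 3 normoxia flox libraries had 84.7% or more. The ratio of Timp2 to Mmp14, 2 partners at the cell surface, averaged 9.9 ± 1.27 (SD, n = 5) in hypoxia KO, 11.6 ± 2.71 (SD, n = 4) in hypoxia flox, 13.1 ± 1.8 (SD, n = 5) in normoxia KO and 19.6 ± 10.3 (SD, n = 4) in normoxia flox, with overlapping ranges between genotypes.

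The ratio of summed TIMP to summed MMP RPKM was lower in hypoxia. It was 2.6 to 4.81 in hypoxia KO against 5.47 to 6.86 in normoxia KO, and 1.89 to 3.98 in hypoxia flox against 4.47 to 9.99 in normoxia flox, with no overlap in either genotype. Between genotypes the ranges overlapped in both oxygen conditions. These ratios rest mostly on Timp3 and Mmp15, describe RNA and not active enzyme, and were not tested. They leave out MMPs outside the 8 members, so they are not the balance of all MMPs. Among those left out, Mmp28 (median 18 RPKM) and Mmp25 (median 6.75 RPKM) were above Mmp14 (median 3.45 RPKM).

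**Figure D4:**
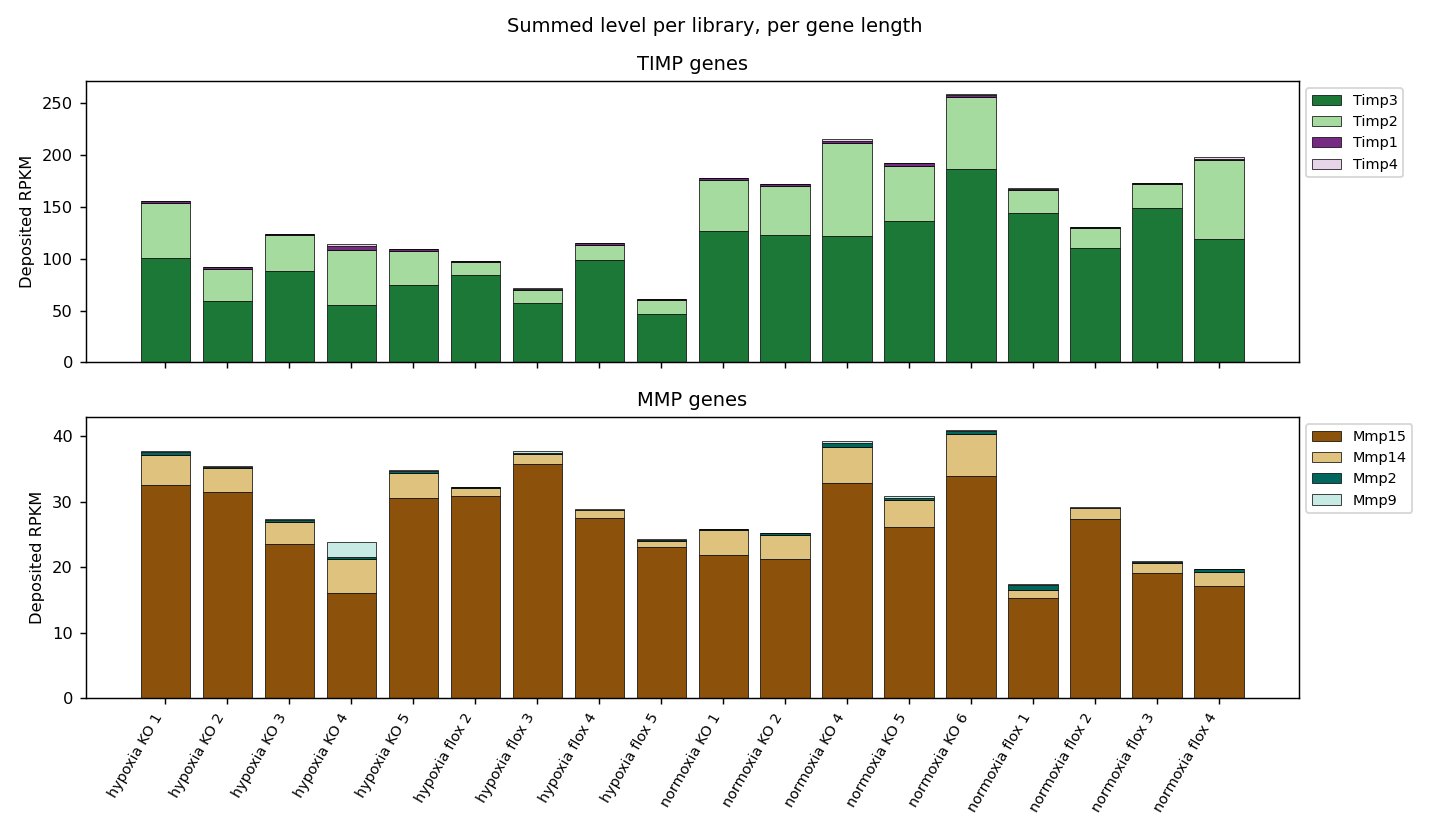
Summed deposited RPKM of the 4 TIMP genes (top) and 4 MMP genes (bottom) in each library; bar segments are genes. Timp3 and Mmp15 are the largest segments of each bar, the Timp3 segment is shorter in the 9 hypoxia libraries, and the Mmp14 segment is larger in KO libraries (3.3 RPKM or more in hypoxia KO).

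Other genes of the pathway were read from lists of further MMPs, MMP regulators, other targets of TIMP3, and MMP substrates. Of 19 further MMPs, 8 had enough reads to be tested, and edgeR's quasi-likelihood test called 0 between genotypes in either oxygen condition (0 also at an unadjusted p under 0.05, and 0 by DESeq2 and limma). With the immediate early genes as a covariate, 1 passed as higher in KO in normoxia. Without the neural RNA pair and hypoxia KO 4, 0 passed, and 2 had an unadjusted p under 0.05 in normoxia by the edgeR test. Mmp25 (MT6-MMP, a membrane-anchored MMP) rose after hypoxia in both genotypes. It averaged 55.1 ± 11.5 CPM (SD, n = 5) in hypoxia KO and 29.4 ± 3.06 CPM (SD, n = 5) in normoxia KO (0.91 ± 0.13, adjusted p = 0.00385). It averaged 56.9 ± 2.40 CPM (SD, n = 4) in hypoxia flox and 27.0 ± 4.38 CPM (SD, n = 4) in normoxia flox (1.07 ± 0.15, adjusted p = 0.000266). Mmp28 (epilysin) fell after hypoxia in KO (-0.62 ± 0.15, adjusted p = 0.0494) and differed by -0.31 ± 0.17 in flox (adjusted p = 0.349). In KO, 0 further MMPs passed as lower after hypoxia with limma, or without the neural RNA pair and hypoxia KO 4.

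Among 18 tested regulators of MMP activity, 9 rose and 2 fell in KO after hypoxia, and 3 rose and 1 fell in KO in normoxia. Over all tested genes, 11.4% rose and 11% fell in hypoxia, and 9.54% rose and 7.03% fell in normoxia. Pcsk5, a proprotein convertase, fell in KO in both, by 2.33 ± 0.39 on the log2 scale in hypoxia (adjusted p = 0.00056) and by 1.60 ± 0.35 in normoxia (adjusted p = 0.00465). It also fell after hypoxia in KO (-1.91 ± 0.38, adjusted p = 0.018). Cd44, a hyaluronan receptor that binds MMP9 and MMP14 at the cell surface, rose in KO after hypoxia (3.04 ± 0.61, adjusted p = 0.00223), as did the convertase gene Pcsk6 (2.66 ± 0.69, adjusted p = 0.0122) and the integrin gene Itgb3 (0.91 ± 0.24, adjusted p = 0.0113). Hypoxia KO 4, the library with neutrophil markers, held the highest Cd44 (21.5 CPM, median of all libraries 2.86) and Itgb3 (53.1 CPM, median 15.4). It also held the lowest Pcsk5 (0.339 CPM, median 8.12). The part of that library in these single differences was not tested. Bsg, which encodes the MMP inducer basigin, rose in KO in normoxia (0.78 ± 0.14, adjusted p = 0.000797), as did Thbs2, a matricellular protein that clears MMP2 (1.01 ± 0.20, adjusted p = 0.00237). Without the neural RNA pair and hypoxia KO 4, the counts were 7 higher and 2 lower in hypoxia and 8 higher and 3 lower in normoxia. Between oxygen conditions 1 regulator passed in KO (Pcsk5) and 1 in flox (Thbs2, higher in hypoxia, 0.81 ± 0.21, adjusted p = 0.0498). List medians were 0.69 and 0.18 for KO against flox in hypoxia and normoxia, and 0.28 and -0.01 for hypoxia against normoxia in KO and flox.

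Of 8 other proteins bound by TIMP3, Adamts9, a matrix protease of blood vessels, rose in all 4 comparisons. It was higher by 0.62 ± 0.19 in KO in hypoxia (adjusted p = 0.0305) and by 0.81 ± 0.20 in KO in normoxia (adjusted p = 0.00864). After hypoxia it was higher by 0.84 ± 0.18 in KO (adjusted p = 0.0299) and by 1.04 ± 0.20 in flox (adjusted p = 0.00759). In KO after hypoxia the sheddase genes Adam10 and Adam17 differed in opposite directions, at 0.31 ± 0.11 (adjusted p = 0.0434) and -0.26 ± 0.09 (adjusted p = 0.0435). Both are also among the regulators. Without the neural RNA pair and hypoxia KO 4, 3 targets of TIMP3 were higher and 1 lower in KO in each oxygen condition, against 2 higher and 1 lower in hypoxia and 1 higher in normoxia with all libraries. In hypoxia, 0 targets were higher and 1 lower in KO with limma or with the immediate early covariate. With the sex signal in the model, 0 were higher and 0 lower. Adamts9 and Adam10 thus did not pass for genotype in hypoxia in those 3 settings.

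Among 18 MMP substrates, all of them tested, 11 rose and 1 fell in KO in hypoxia, and 11 rose and none fell in KO in normoxia, with medians of 0.46 and 0.63; over all tested genes 11.4% were higher in hypoxia and 9.54% in normoxia. Fn1 (fibronectin) rose by 0.88 ± 0.13 in hypoxia (adjusted p = 0.000203) and by 1.3 ± 0.13 in normoxia (adjusted p = 4.42e-06). Col3a1, a fibrillar collagen, averaged 50.2 ± 15.8 CPM (SD, n = 5) in hypoxia KO and 7.08 ± 0.913 CPM (SD, n = 4) in hypoxia flox (2.83 ± 0.29, adjusted p = 6.77e-06), and 56.7 ± 18.4 CPM (SD, n = 5) in normoxia KO and 8.38 ± 2.02 CPM (SD, n = 4) in normoxia flox (2.76 ± 0.28, adjusted p = 5.5e-06). Lamc1, the laminin gamma chain of vessel basement membrane, rose by 0.69 ± 0.08 (adjusted p = 3.54e-05) and 0.76 ± 0.08 (adjusted p = 1.05e-05) in hypoxia and normoxia. Hspg2, the basement membrane proteoglycan perlecan, rose in KO in hypoxia (0.81 ± 0.13, adjusted p = 0.000404), and Nid1 (nidogen) in normoxia (1.01 ± 0.11, adjusted p = 9.38e-06). Ocln (occludin), a tight junction protein, fell in KO in hypoxia (-0.40 ± 0.13, adjusted p = 0.0337), and no other substrate passed as lower. The Ocln call ended with the immediate early covariate (11 substrates higher, 0 lower) and with the sex signal in the model (9 higher, 0 lower). The part of the pericyte markers in these values was not tested.

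After hypoxia 8 of the 18 substrates rose in each genotype and none fell, where 0.713% of all genes rose in KO and 2.34% in flox. The basement membrane genes Col4a1 and Col4a2 rose by 0.74 ± 0.09 and 0.80 ± 0.09 in KO (adjusted p = 0.00121 and 0.000992) and by 0.88 ± 0.10 and 0.92 ± 0.10 in flox (adjusted p = 3.9e-05 and 2.48e-05). Nid1 and Nid2, which link laminin to type IV collagen, rose by 1.23 ± 0.12 and 1.52 ± 0.14 in flox (adjusted p = 8.82e-06 and 5.47e-06). Nid1 rose by 0.88 ± 0.10 (adjusted p = 0.00108) and Lamc1 by 0.62 ± 0.08 (adjusted p = 0.00137) in KO. Medians over the list were 0.42 in KO and 0.24 in flox. The substrate counts without the neural RNA pair and hypoxia KO 4 were 12 higher and 2 lower (KO against flox, hypoxia), 11 higher and 1 lower (normoxia), 8 higher in KO and 9 higher in flox for oxygen.

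**Figure D5:**
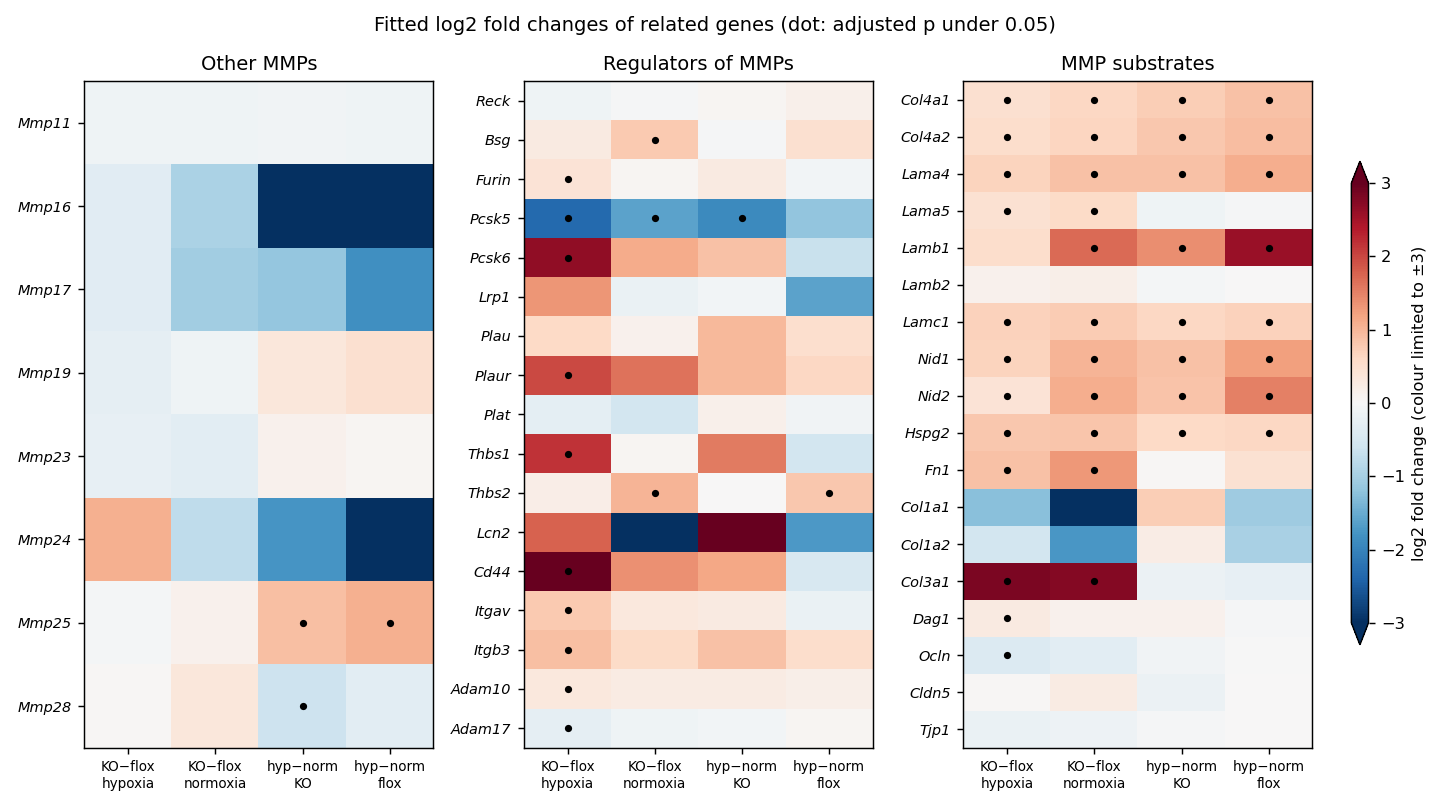
Fitted log2 fold changes (colour, limited to ±3) of further MMPs, regulators of MMPs and MMP substrates in 4 comparisons; a dot marks an adjusted p under 0.05. The substrate panel has 12 dots in the hypoxia genotype column and 11 in the normoxia one, while the further MMPs have none in either.

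The genes whose pattern over the 18 libraries was nearest to each called member were found by the mean absolute difference of centred log2 CPM, among the 11512 named genes that averaged log2 CPM 1 or more. Nearest to Mmp14 were Osbpl5 and Plcd1 (0.14 each) and Dram1 (0.19), where the mean absolute deviation of Mmp14 itself was 0.86. Plcd1, a phospholipase C gene, rose in KO by 2.04 ± 0.15 in hypoxia (adjusted p = 8.31e-07) and by 1.63 ± 0.15 in normoxia (adjusted p = 1.7e-06). Timp2 (own deviation 0.83) lay nearest to Cd9 (0.23), a tetraspanin gene, Cmip (0.25) and Osbpl5 (0.26). Timp1 (0.53) lay nearest to B3gnt3 (0.23), S100a11 (0.23) and Ppp1r13l (0.24). Timp3 (0.46) lay nearest to Tcf23 (0.20), Ptprj (0.20) and Esrp2 (0.23). Ptprj, a receptor tyrosine phosphatase gene, fell after hypoxia by 1.05 ± 0.12 in KO (adjusted p = 0.000992) and by 0.69 ± 0.13 in flox (adjusted p = 0.00538). Mmp9 (0.72) had no near neighbour, the closest being Zbp1 at 0.41, followed by Apol10b and Aacs at 0.49. Osbpl5 was listed for 2 members. All genes share the same 18 libraries and their depths, so these are descriptions.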

How the data were processed

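HISAT2, edgeR and the build GRCm39 are named, without roles, per the submitters' processing notes; versions, counting tool, annotation and strand setting are not given in the sources used here. The deposited counts are whole numbers per Ensembl gene, and the RPKM were deposited by the authors with 1 decimal; neither pools libraries. Symbols came from GENCODE M21 (GRCm38), which matched 52029 of 57010 IDs (91.3%).

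Counts were tested in R 4.3.3 with edgeR 4.0.16 (filterByExpr, TMM scaling, robust quasi-likelihood F test, checked on simulated data) in 1 model of the 4 groups. Benjamini-Hochberg adjustment ran over the 17531 genes of each comparison, at 0.05. SE is the log2 fold change over the square root of F. CPM use TMM-scaled totals, and log2 CPM a prior count of 2. RPKM compared levels between genes. Members and lists were chosen with earlier results of these data known. Named genes are the members, up to 4 called genes of each list per comparison with the smallest adjusted p, the 3 synapsins, and the 3 nearest genes of each called member. Ocln was named after its values were seen. In the regulator list, 1 gene is counted but not reported here. Adam10 and Adam17 stand in 2 lists.

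Alternatives were RLE scaling, no or a stricter filter (1 CPM in 4 libraries), DESeq2 1.42.0, limma 3.58.1 on log2(RPKM + 0.1), only the groups compared, replicate blocks, covariates (immediate early genes, non-endothelial markers, sex signal of 4 Y-linked genes against Xist), no neuron-marker libraries, and each library left out. The non-endothelial covariate was the first principal component (main axis of variation) of the pooled markers. It was 21.44 and 25.57 in normoxia KO 4 and flox 4, and -9.4 to 1.14 elsewhere. Hypoxia KO 4, with the neutrophil markers, had 0.27. It thus stood mainly for neural RNA and did not adjust for each other cell type. Replicate numbers come from the labels, which do not say what they share. Deviations from group means of same-numbered normoxia KO and flox libraries 1, 2 and 4 correlated across 12626 genes at r = 0.671, 0.166 and 0.786. For 1 and 4 the same-numbered flox library had the highest correlation, and for 2 another normoxia flox library did. The numbers were taken to pair libraries in normoxia, with less ground for 2. The reported fit has no block, and for the members blocked results are given where they end or add a call. In the other comparisons at least 1 pair was under 0.1. No 2 libraries agreed within counting noise. Precision for Mmp2, Mmp9, Timp1 and Timp4 is limited by low counts.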

Additional observations from a re-analysis of the deposited data

Results flagged for a closer look

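Of 32 groups of 4 or 5 libraries (8 members in 4 groups), 7 held a library whose gap to the nearest other library exceeded the 95% critical value of Dixon's test, where chance gives about 1 in 20. Hypoxia KO 4 stood apart for Mmp9 at 8.92 CPM, for Timp1 at 3.78 CPM and for Timp4 at 16.3 CPM; its neutrophil markers summed to 115 CPM. Normoxia KO 4 stood apart for Timp4 at 9.3 CPM, and normoxia flox 4 for Timp4 at 14.6 CPM and for Timp2 at 318 CPM; these are the libraries with neuron marker sums of 1080 and 1900 CPM. Normoxia flox 1 stood apart for Timp1 at 1.2 CPM, in a library with 509 CPM of Col1a1 and 424 CPM of Col1a2. The part of these markers in the values was not tested.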

How the results depend on the processing

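Of 40 member differences (8 members in 5 comparisons), 9 passed in the reported fit. Mmp14 in both genotype comparisons and Timp2 for KO against flox in hypoxia passed in 22 of 22 alternatives each. Timp1 passed in 15 of 22 in hypoxia and 17 of 22 in normoxia, and Mmp9 in hypoxia in 6 of 19. For oxygen, Timp3 passed in 11 of 23 in KO and 12 of 21 in flox, and Timp2 in flox in 10 of 21. Most alternative values belong to differences that did not pass in the reported fit. Over 916 alternative values, 847 kept direction and side of the threshold (a change of sign with no pass on either side is counted among these), 57 lost the pass, 11 gained it and 1 turned direction while passing, namely Mmp15 for KO against flox in hypoxia with the sex signal in the model (-0.49). The number of members passing was 2 to 4 for KO against flox in hypoxia and 1 to 3 in normoxia when 1 library was left out, 0 to 1 and 0 to 2 for oxygen in KO and flox, and 0 for the interaction. For KO against flox in hypoxia it was 2 with the immediate early covariate and 2 without the neuron-marker libraries and hypoxia KO 4. For oxygen in KO it was 0 with no filter, with either replicate block and without those 3 libraries. For oxygen in flox it was 0 with no filter or only the groups compared, and 1 with limma or the non-endothelial covariate. With the sex signal it was also 1, but Timp2 and Timp3 were both lost and Mmp15 was gained (0.86, higher in hypoxia). For the interaction it was 1 with the sex signal. The cause was not tested. DESeq2 gave no adjusted p for 10 values of Mmp9 and Timp4.

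With a replicate block over same-numbered libraries, 1 member passed for KO against flox in normoxia (Mmp14 at 1.37), and 0 for oxygen in KO or flox; with a block over all libraries, 1 passed for oxygen in flox and 0 in KO. All-gene counts under the same-numbered block were 701 in normoxia (2905 reported) and 0 for oxygen in KO (260) and flox (492), in fits with fewer libraries. The block over all libraries gave 1791 in normoxia, 43 for oxygen in KO and 3 for the interaction (77). In those other comparisons the libraries share a number only.

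All-gene counts also differed by over 1.5 times for oxygen in KO with DESeq2 (607), only the groups compared (107), the immediate early covariate (485), the non-endothelial covariate (407) and 1 library left out (53 to 523). For oxygen in flox they were 814 with DESeq2, 961 with the immediate early covariate and 911 without the 3 libraries. The interaction had 143 with DESeq2, 128 without the 3 libraries and 28 to 98 with 1 left out. Depth limits Mmp2, Mmp9, Timp1 and Timp4, which had few reads.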
